A study of Mus musculus with 6 samples.

Results

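The genes described here encode vascular growth factors and their receptors: the VEGF ligands Vegfa, Vegfb, Vegfc and Figf, the placental growth factor gene Pgf, the angiopoietin Angpt1, the angiopoietin-like genes Angptl2 and Angptl4, and the receptors Flt1 and Nrp1. They were chosen by symbol, as 10 of the 20475 genes in the deposited table, and all 10 were among the 15025 genes with enough reads to be tested. The cells were NIH3T3, an established mouse embryonic fibroblast line, at passage 5. Of the 6 RNA-seq libraries, 2 came from cells given extracellular vesicles (EVs) of MDA-MB-231, a line of human triple-negative breast cancer. Another 2 came from cells given EVs of MCF10A, a human breast epithelial line that does not form tumours, and 2 from cells given phosphate-buffered saline (PBS), the liquid in which the EVs were suspended. RNA was taken 48 h after treatment in all groups. Whether replicates were grown as separate cultures is not in the labels, and the p-values below therefore measure only the spread between these samples.

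VEGF ligands are secreted dimers that bind receptor tyrosine kinases on endothelial cells. VEGF-A acts through KDR and FLT1, VEGF-B and placental growth factor bind FLT1, and VEGF-C and VEGF-D act on FLT4, the receptor of lymphatic endothelium. NRP1 is a co-receptor without a kinase domain, shared by VEGF-A and class 3 semaphorins, and angiopoietin 1 activates the endothelial receptor TEK. Fibroblasts are a stromal source of several of these ligands, and VEGFA is a textbook target of the hypoxia-inducible factors.

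The libraries held 23945284 and 22451173 gene reads with MDA-MB-231 EVs, 23126453 and 29315530 with MCF10A EVs, and 23279661 and 27000816 with PBS. Levels are given as normalised reads, the authors' read values adjusted to a common library size, and the SD is over n = 2 libraries per group. A change is a log2 difference of value plus 1, and a gene was called, or said to have risen or fallen, at a limma adjusted p under 0.05 over all tested genes. All 10 fibroblast markers were above 100 reads in every library, and summed to 365938 to 375187 normalised reads with MDA-MB-231 EVs, 380230 to 391922 with MCF10A EVs and 448396 to 448996 with PBS. Single markers did not all follow this sum. In the same order Dcn averaged 27203, 37187 and 51043, whereas Col3a1 averaged 5449, 6885 and 3968. The 10 endothelial markers summed to 158 to 195 normalised reads with MDA-MB-231 EVs, 297 to 345 with MCF10A EVs and 356 to 364 with PBS, mostly Cdh5, with Emcn and Erg at 0 and Pecam1 at or below 1.89. The 6 macrophage markers in the table summed to 979 to 1042 with MDA-MB-231 EVs, 1768 to 1821 with MCF10A EVs and 3024 to 3124 with PBS, mostly Cd14, with Emr1 at 0. Epithelial markers summed to at most 49.6 and adipocyte markers to at most 138 in any library. Pericyte and smooth muscle markers summed to 1374 to 1443 with MDA-MB-231 EVs, 917 to 924 with MCF10A EVs and 1091 to 1129 with PBS. Most of this was Cspg4, which averaged 1222, 724 and 895 in the same order. Myh11 averaged 134, 141 and 122, and Des 41.6, 47.3 and 78.9. The part of these differences in the changes below was not tested. In bulk RNA, fewer cells with a transcript and less of it per cell cannot be told apart.

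With MDA-MB-231 EVs the transcripts of Vegfa, Pgf and Nrp1 fell 2.66-fold, 2.41-fold and 1.64-fold against PBS, and Figf rose 1.58-fold. Angptl4 was also called lower, by 0.15 on the log2 scale. Thus 5 of 10 genes were called, 1 higher and 4 lower, where 34.8% of all tested genes were called, 17.9% higher and 16.9% lower. Higher calls were 51.4% of all calls, and 67.8% with scaling by library totals. On recovered reads edgeR called 5 of the 10 genes (45.0% of its tested genes) and DESeq2 called 4 (30.7%). Of the 10 genes 4 were called with a change of at least 1.5-fold, against 5.38% of all tested genes. The libraries did not overlap between the groups for 7 of 10 genes, and for 65.9% of all tested genes.

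With MCF10A EVs Vegfa fell 2.26-fold against PBS and Pgf 1.43-fold, while Angptl4 rose 1.43-fold, Vegfc 1.29-fold, Figf 1.28-fold and Angpt1 1.18-fold. Vegfb and Angptl2 were called lower by 0.12 and 0.09 on the log2 scale. In all 8 of 10 genes were called, 4 in each direction, where 31.7% of all tested genes were called, 17.1% higher and 14.6% lower. The edgeR test called 8 (41.8% of its tested genes) and DESeq2 called 5 (28.4%). Only Vegfa of the 10 genes was called with at least 1.5-fold, against 3.47% of all tested genes. For 8 of 10 genes the libraries did not overlap, as for 64.2% of all tested genes.

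Both comparisons share the PBS libraries, so their results are not independent of each other. Set directly against MCF10A EVs, MDA-MB-231 EVs left Nrp1 1.66-fold, Pgf 1.68-fold and Angptl4 1.59-fold lower, with Figf 1.24-fold higher. Vegfa was 1.18-fold lower, and smaller differences were called for Vegfb, Angptl2 and Angpt1. These were 8 of 10 genes, 3 higher and 5 lower, where 16.9% of all tested genes were called, 6.84% higher and 10.1% lower. With scaling by library totals 61.7% of all calls were higher, against 40.4% here. Of the 10 genes 3 were called with at least 1.5-fold, against 1.98% of all tested genes. The edgeR test called 8 (24.2% of its tested genes) and DESeq2 called 6 (12.5%). The libraries of 9 of 10 genes did not overlap, against 56.0% of all tested genes.

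**Figure D1:**
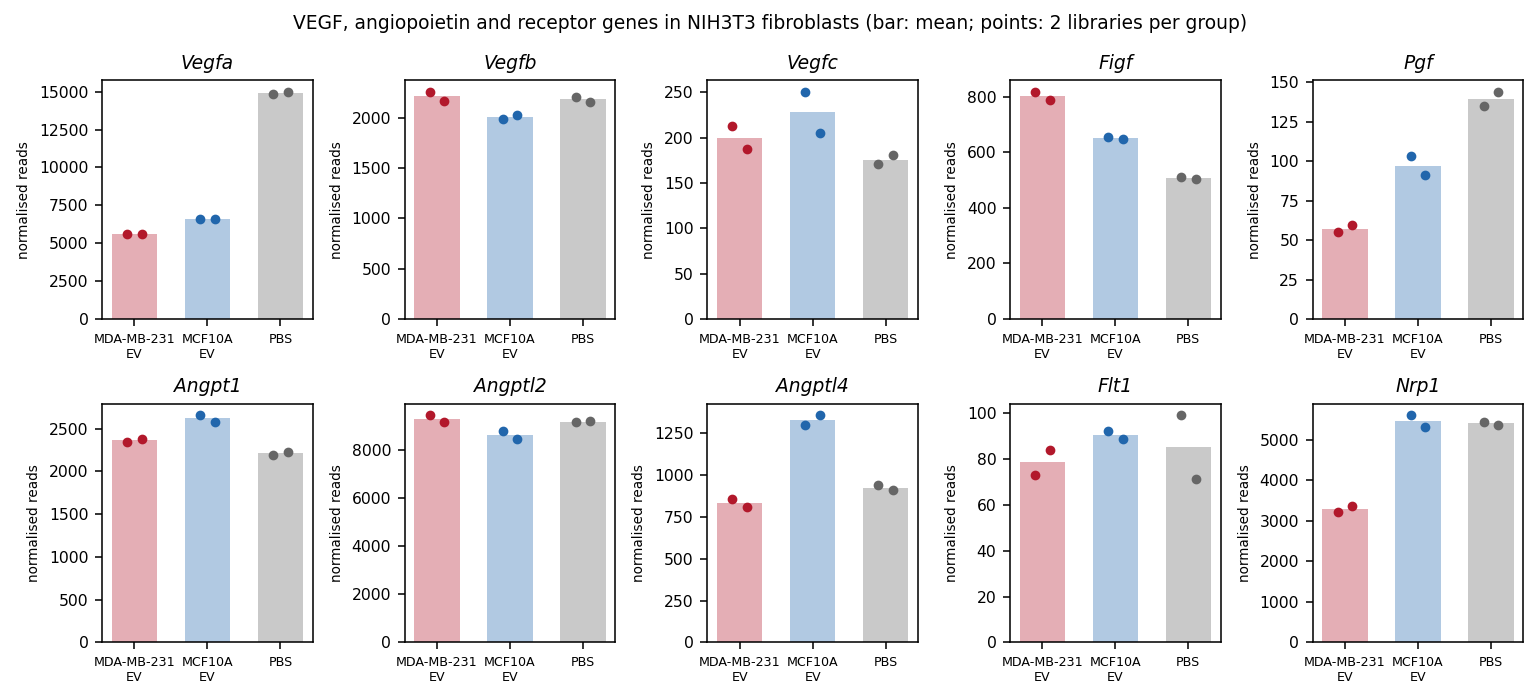
Normalised reads of each of the 10 genes (vertical axes, each from 0) in NIH3T3 cells with MDA-MB-231 EVs, MCF10A EVs or PBS, with 1 point per library and a bar at the mean of 2 libraries. Vegfa and Pgf are lower with either EV than with PBS, Figf is higher, and Nrp1 is low with MDA-MB-231 EVs only, while the Flt1 points of the PBS libraries span those of all others.

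**Figure D2:**
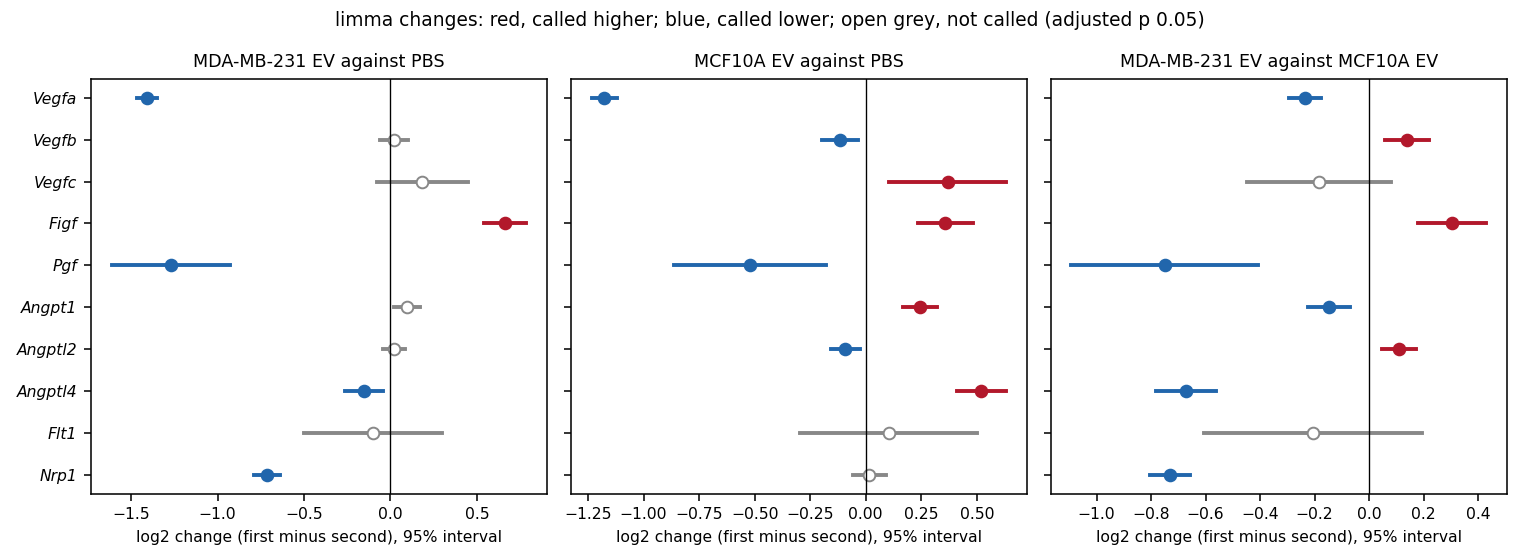
Log2 changes (horizontal axis) of the 10 genes with 95% intervals from limma, for each EV against PBS and for the EVs against each other, coloured where called. Vegfa lies farthest left in both comparisons with PBS, at -1.41 and -1.18, and Angptl4 lies left of 0 in the first and right of 0 in the second.

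Vegfa, on chromosome 17, encodes VEGF-A, the main angiogenic ligand. It had 5638 and 5589.7 normalised reads with MDA-MB-231 EVs, 6625 and 6587 with MCF10A EVs, and 14863 and 14997.5 with PBS. Both EV groups lay far below both PBS libraries, no groups overlapped, and the libraries with MDA-MB-231 EVs were the lowest. The means were 5614 ± 34.1 with MDA-MB-231 EVs, 6606 ± 27.2 with MCF10A EVs and 14930.1 ± 95.3 with PBS. The differences were large beside these SDs. However, counting error alone gives an SD of 73.5, 83.5 and 122 reads for 1 library, in the same order. The observed SDs were smaller than that, so they are a poor measure of the variation between replicates. The log2 change was -1.41 (SE 0.03, limma adjusted p = 3.06e-14) with MDA-MB-231 EVs and -1.18 (adjusted p = 6.8e-13) with MCF10A EVs. Between the EV groups it was -0.23 (limma adjusted p = 2.43e-05), and this call was lost without a variance trend (adjusted p = 0.0568). The calls against PBS held in all 18 alternative settings that were run. The table counts whole genes and cannot separate the splice forms of Vegfa, which differ in how they bind matrix and NRP1.

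RefSeq (build GRCm38.p6) gives Vegfa a main start and another inside the gene, both on the minus strand. The 250 bases before each are printed because Vegfa had the largest fall of the 10 genes against PBS, in lower case with the hypoxia-inducible factor core motifs ACGTG and GCGTG, on either strand, in capitals. The first window is chr17:46032378-46032627 and the second chr17:46025164-46025413.
Vegfa, main start: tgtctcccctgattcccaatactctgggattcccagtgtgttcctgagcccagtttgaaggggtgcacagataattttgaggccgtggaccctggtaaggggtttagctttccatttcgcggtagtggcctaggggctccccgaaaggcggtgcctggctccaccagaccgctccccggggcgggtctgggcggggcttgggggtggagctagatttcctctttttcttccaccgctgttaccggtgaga
Vegfa, internal start: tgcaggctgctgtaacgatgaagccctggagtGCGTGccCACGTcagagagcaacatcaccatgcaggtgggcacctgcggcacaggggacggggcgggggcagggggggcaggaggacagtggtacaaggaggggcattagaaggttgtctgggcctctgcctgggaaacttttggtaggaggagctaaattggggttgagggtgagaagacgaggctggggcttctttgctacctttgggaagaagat
The main window held no match to either core motif, to the AP-1 motif TGANTCA or to the cyclic AMP response element TGACGTCA, and none to the direct repeat bound by PPAR and RXR. The internal window held GCGTG, whose first base lay at -218 from the start, and ACGTG at -211 on the other strand. Since this window lies within the Vegfa gene, these letters may be transcribed sequence and need not act as a promoter. Sequence beyond the windows was not searched. Of 32851 mouse windows from 250 bases before to 50 after a start, 19.6% held ACGTG and 32.4% GCGTG, while 7.8% held TGANTCA and 1.8% TGACGTCA, so matches to the core motifs are common. The direct repeat was in 13 windows. A match describes letters only, and where none was found this says only that these letters are not in the window.

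Pgf, on chromosome 12, encodes placental growth factor, a ligand of FLT1. It had 54.9 and 59.6 normalised reads with MDA-MB-231 EVs, 103 and 91.1 with MCF10A EVs, and 135 and 144 with PBS. The groups stood in 3 steps without overlap, lowest with MDA-MB-231 EVs and highest with PBS. The changes were -1.27 (SE 0.16, limma adjusted p = 1.54e-05) with MDA-MB-231 EVs and -0.52 (adjusted p = 0.0217) with MCF10A EVs, and -0.75 between the EV groups (adjusted p = 0.00447). Behind the lowest value were 54 reads and behind the highest 154, a counting error of 8.48% to 13.5% of a group's mean for 1 library. The call with MCF10A EVs was lost without MCF10A EV replicate 2 (limma adjusted p = 0.139), without PBS replicate 1 (0.0683), without PBS replicate 2 (0.129) and with DESeq2 (0.0904). The call between the EV groups was lost without MCF10A EV replicate 1 (limma adjusted p = 0.0573).

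Figf, on chromosome X, encodes VEGF-D and is named Vegfd in RefSeq. It had 818 and 789 normalised reads with MDA-MB-231 EVs, 653 and 646 with MCF10A EVs, and 509 and 504 with PBS. Its order was the reverse of that of Vegfa and Pgf, with the libraries of MDA-MB-231 EVs highest, PBS lowest and no overlap. The rise was 0.66 (SE 0.06, limma adjusted p = 3.77e-07) with MDA-MB-231 EVs and 0.36 (adjusted p = 2.39e-04) with MCF10A EVs. The difference between the EV groups was 0.31 (limma adjusted p = 0.00193). These 3 calls held in all 18 settings.

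The windows of Figf (chrX:164373272-164373521, plus strand) and Pgf (chr12:85177314-85177563, minus strand) are printed beside each other because these ligands moved in opposite directions.
Figf: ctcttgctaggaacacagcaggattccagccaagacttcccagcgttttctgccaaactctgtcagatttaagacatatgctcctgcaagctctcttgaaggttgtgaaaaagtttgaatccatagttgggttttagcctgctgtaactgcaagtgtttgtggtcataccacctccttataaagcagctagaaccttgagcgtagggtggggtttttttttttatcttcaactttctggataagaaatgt
Pgf: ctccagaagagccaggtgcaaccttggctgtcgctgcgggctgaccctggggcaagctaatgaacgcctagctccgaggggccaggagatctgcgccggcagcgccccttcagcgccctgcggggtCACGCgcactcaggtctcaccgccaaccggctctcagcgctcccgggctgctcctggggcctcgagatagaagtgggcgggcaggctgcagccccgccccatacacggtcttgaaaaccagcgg
The Figf window, extended to 50 bases past the start, held none of the 5 motifs and had a GC content of 42.0%. RefSeq gives Pgf a pair of starts, and the printed window is that of the first, with a GC content of 66.0% and GCGTG once, at -124 on the other strand. The window of the other start (chr12:85175933-85176232) had a GC content of 64.0% and held none of the 5 motifs. The other windows lay between 59.3% and 75.3% GC. Of the 10 genes 8 had an entry, while Angpt1 and Angptl4 had none.

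Vegfc, on chromosome 8, encodes VEGF-C, the main lymphangiogenic ligand. It had 213 and 187 normalised reads with MDA-MB-231 EVs, 251 and 205 with MCF10A EVs, and 171 and 180.5 with PBS. The PBS libraries were the lowest, and the EV groups overlapped each other. The change of 0.37 with MCF10A EVs was called (limma adjusted p = 0.0338), but not without MCF10A EV replicate 1, where it was 0.23 (adjusted p = 0.297). It was also lost without PBS replicate 1 (limma adjusted p = 0.162), without PBS replicate 2 (0.0835), with quantile scaling (0.0549), with DESeq2 (0.127) and without a variance trend (0.137). The change of 0.18 with MDA-MB-231 EVs was not called (limma adjusted p = 0.284), with an interval of -0.08 to 0.45. That between the EV groups was -0.18, with an interval of -0.45 to 0.08 (limma adjusted p = 0.371).

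Vegfb, on chromosome 19, encodes VEGF-B, a ligand of FLT1 linked to fatty acid uptake in endothelium. It had 2258 and 2167 normalised reads with MDA-MB-231 EVs, 1990.3 and 2028 with MCF10A EVs, and 2209 and 2150.3 with PBS. The libraries of MCF10A EVs were the lowest, while those of MDA-MB-231 EVs overlapped those of PBS. The fall with MCF10A EVs was 0.12 on the log2 scale and was lost in 7 of the 18 settings, among them without each MCF10A EV replicate and each PBS replicate (limma adjusted p between 0.0616 and 0.177). With MDA-MB-231 EVs the change was 0.02, with an interval of -0.06 to 0.10 (limma adjusted p = 0.718). It was higher by 0.14 with MDA-MB-231 EVs than with MCF10A EVs (limma adjusted p = 0.021), a call lost in 5 of 18 settings, among them without MDA-MB-231 EV replicate 1 (0.135), MCF10A EV replicate 1 (0.135) and MCF10A EV replicate 2 (0.0633).

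To compare levels between ligand genes, normalised reads were divided by the length of each gene's merged exons in kilobases. On this per-kb scale Vegfa made up 41.5% and 42.4% of the 5 ligands' summed level with MDA-MB-231 EVs, 48.4% and 48.3% with MCF10A EVs, and 67.1% and 67.7% with PBS. The share of Vegfa was thus lowest with MDA-MB-231 EVs and highest with PBS, with no overlap. Vegfb made up 44.1% ± 0.391 with MDA-MB-231 EVs, 39.2% ± 0.615 with MCF10A EVs and 26.3% ± 0.501 with PBS, and was ahead of Vegfa per kb in the MDA-MB-231 EV libraries alone. The share of Figf was 10.7% ± 0.0547 with MDA-MB-231 EVs, 8.46% ± 0.0415 with MCF10A EVs and 4.07% ± 0.0269 with PBS. Vegfc held 2.61% with MDA-MB-231 EVs, 2.92% with MCF10A EVs and 1.39% with PBS. Pgf held 0.632% with MDA-MB-231 EVs, 1.05% with MCF10A EVs and 0.929% with PBS.

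The summed ligand level per kb was 3124 ± 62.7 with MDA-MB-231 EVs, 3189.8 ± 7.71 with MCF10A EVs and 5173 ± 0.0542 with PBS. The ratio of Vegfa to Vegfb per kb was 0.951 ± 0.0217 with MDA-MB-231 EVs, 1.23 ± 0.0214 with MCF10A EVs and 2.57 ± 0.0654 with PBS. The ratio of Vegfa to Figf was 3.93 ± 0.0751 with MDA-MB-231 EVs, 5.71 ± 0.0183 with MCF10A EVs and 16.6 ± 0.215 with PBS. Shares describe how the 5 transcripts stood to each other and move for every ligand when 1 changes. With the longest annotated transcript in place of merged exons, an alternative chosen after seeing the data, the Vegfa share was 42.2% with MDA-MB-231 EVs, 48.6% with MCF10A EVs and 67.5% with PBS.

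**Figure D3:**
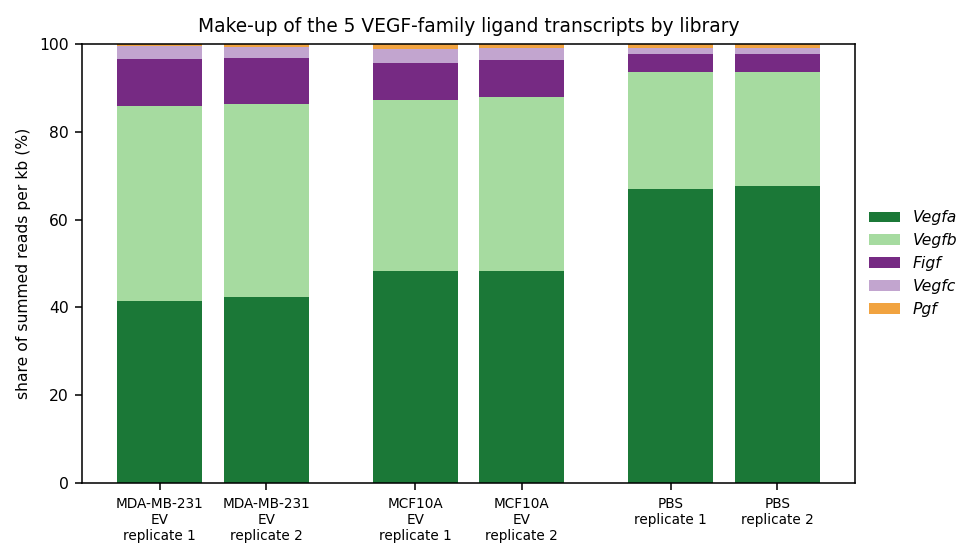
Share of each VEGF-family ligand in the summed reads per kb (vertical axis, percent) in each of the 6 libraries, stacked. The Vegfa block is shortest with MDA-MB-231 EVs (41.5% and 42.4%) and tallest with PBS (67.1% and 67.7%).

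Angpt1, on chromosome 15, encodes the TEK agonist angiopoietin 1. It had 2343 and 2383 normalised reads with MDA-MB-231 EVs, 2659 and 2578 with MCF10A EVs, and 2195 and 2230.4 with PBS. The MCF10A EV libraries were highest and the groups did not overlap. The rise with MCF10A EVs was 0.24 (limma adjusted p = 1.05e-04). With MDA-MB-231 EVs the change was 0.09, with an interval of 0.02 to 0.17, and was not called (limma adjusted p = 0.0531), though it was under 4 of the 18 settings. MDA-MB-231 EVs left Angpt1 lower than MCF10A EVs by 0.15 (limma adjusted p = 0.00978), a call lost in 5 of 18 settings, among them without MDA-MB-231 EV replicate 1 (0.0524) or MCF10A EV replicate 1 (0.101). An antisense gene, Gm17473, shares 737 exonic bases with Angpt1, and since the counted strand is not given in the sources used here, reads of the pair cannot be told apart.

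Angptl2, on chromosome 2, encodes a secreted angiopoietin-like protein that does not bind TEK. It had 9430.3 and 9122 normalised reads with MDA-MB-231 EVs, 8767 and 8431 with MCF10A EVs, and 9143 and 9174 with PBS. Only the MCF10A EV libraries stood apart, below the rest. The fall with MCF10A EVs, 0.09 on the log2 scale, was lost in 6 of 18 settings, among them without MCF10A EV replicate 2, PBS replicate 1 or PBS replicate 2 (limma adjusted p = 0.228, 0.125 and 0.144). The difference of 0.11 between the EV groups (limma adjusted p = 0.0198) was lost in 3, among them without MDA-MB-231 EV replicate 1 (0.106) or MCF10A EV replicate 2 (0.171). With MDA-MB-231 EVs the change against PBS was 0.02, with an interval of -0.05 to 0.08 (limma adjusted p = 0.687), and it was called higher in 2 of 18 settings, with scaling by library totals (0.08, adjusted p = 0.0195) and with quantile scaling (0.08, adjusted p = 0.024).

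Angptl4, on chromosome 17, encodes an inhibitor of lipoprotein lipase that is also a target of PPAR factors and of hypoxia. It had 857 and 807 normalised reads with MDA-MB-231 EVs, 1295 and 1356 with MCF10A EVs, and 937 and 911 with PBS. The MCF10A EV libraries were well above all others, and those of MDA-MB-231 EVs were below PBS without overlap. Angptl4 rose by 0.52 (SE 0.05, limma adjusted p = 2.58e-06) with MCF10A EVs, a call that held in all 18 settings. With MDA-MB-231 EVs it fell by 0.15 on the log2 scale (limma adjusted p = 0.033), a call lost in 6 of 18 settings, among them without MDA-MB-231 EV replicate 2 (0.213), PBS replicate 1 (0.168) or PBS replicate 2 (0.0706). The difference between the EV groups was -0.67 (limma adjusted p = 3.48e-07).

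Nrp1, on chromosome 8, encodes neuropilin 1. It had 3216 and 3368 normalised reads with MDA-MB-231 EVs, 5608 and 5324 with MCF10A EVs, and 5441 and 5374 with PBS. Both MDA-MB-231 EV libraries were far below the other 4, and the libraries of MCF10A EVs spanned those of PBS. The fall with MDA-MB-231 EVs was 0.72 on the log2 scale (SE 0.03, limma adjusted p = 7.1e-10). With MCF10A EVs the change was 0.015, with an interval of -0.06 to 0.09 (limma adjusted p = 0.794). The difference between the EV groups was -0.73 (limma adjusted p = 2.21e-09). The table cannot separate membrane-bound from soluble NRP1 transcripts.

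The window before the Nrp1 start (chr8:128358823-128359072, plus strand) is shown because Nrp1 differs between the EVs.
Nrp1: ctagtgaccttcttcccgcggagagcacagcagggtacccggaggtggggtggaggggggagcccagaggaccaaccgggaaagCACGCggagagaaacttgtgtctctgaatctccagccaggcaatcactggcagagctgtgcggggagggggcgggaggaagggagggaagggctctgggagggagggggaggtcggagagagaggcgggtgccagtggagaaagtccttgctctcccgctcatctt
It held GCGTG once, at -166 on the other strand, and none of the other 4 motifs. Of the windows not printed, that of Vegfb held GCGTG at -237 on the other strand and at -81. That of Flt1 held GCGTG at -184 on the other strand and TGACGTCA at -81. Neither Vegfb nor Flt1 was called with MDA-MB-231 EVs against PBS, while Vegfb was called lower with MCF10A EVs. The windows of Vegfc and Angptl2 held none of the motifs. Whether any motif had a part in the changes was not tested.

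Flt1, on chromosome 5, encodes VEGFR-1, which has membrane-bound and soluble forms that the table does not separate. It had 73.2 and 84.0 normalised reads with MDA-MB-231 EVs, 92.3 and 88.9 with MCF10A EVs, and 99.3 and 71.5 with PBS. The PBS libraries held both the highest and the lowest value. The changes were -0.10 with MDA-MB-231 EVs, with an interval of -0.50 to 0.30 (limma adjusted p = 0.721), and 0.10 with MCF10A EVs, with an interval of -0.30 to 0.50 (adjusted p = 0.729). Between the EV groups the difference was -0.21, with an interval of -0.60 to 0.19 (limma adjusted p = 0.525). With 72 to 105 reads per library, changes within these intervals were not excluded. Per kb Flt1 averaged 5.82 with MDA-MB-231 EVs, 6.71 with MCF10A EVs and 6.33 with PBS, and Nrp1 336 with MDA-MB-231 EVs, 559 with MCF10A EVs and 553 with PBS.

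KDR and FLT4, the main VEGF receptors of vascular and lymphatic endothelium, and TEK stood near 0. Kdr averaged 1.53 ± 2.13 normalised reads with MDA-MB-231 EVs, 2.35 ± 0.269 with MCF10A EVs and 2.54 ± 0.984 with PBS. Flt4 averaged 0.528 ± 0.744 with MDA-MB-231 EVs, 2.67 ± 3.70 with MCF10A EVs and 0.957 ± 1.33 with PBS. Tek averaged 3.11 ± 1.34 with MDA-MB-231 EVs, 0.882 ± 1.22 with MCF10A EVs and 2.06 ± 1.64 with PBS. These 3 genes had 0 to 6 reads per library, so that limma called none of them says little about change. Of 16 receptor and integrin genes tested, 2 were called higher and 5 lower with MDA-MB-231 EVs, 2 and 5 with MCF10A EVs, and 1 and 3 between the EVs. The share called was 43.8% with either EV and 25% between the EVs, where 34.8% (MDA-MB-231 EVs), 31.7% (MCF10A EVs) and 16.9% (between the EVs) of all tested genes were called. Kdr, Flt4 and Tek are among the 16, of which edgeR kept 10 for testing and called 8, 7 and 4 in the same order. The median log2 change was -0.14 with MDA-MB-231 EVs, -0.11 with MCF10A EVs and 0.02 between the EVs. Over all tested genes these medians were 0.0104, 0.0001 and -0.0006 in the same order. Nrp2, the co-receptor of VEGF-C, had 8927 and 8809 normalised reads with MDA-MB-231 EVs, 8028 and 8192 with MCF10A EVs and 10125 and 10239 with PBS, and fell in both (limma adjusted p = 3.51e-05 and 5.15e-07). Itgb3, the beta chain of the integrin alpha-v beta-3, fell to 1058 ± 63.3 with MDA-MB-231 EVs and 1623 ± 88.6 with MCF10A EVs, against 2048 ± 5.69 with PBS. Plxna1, a semaphorin receptor that pairs with neuropilins, rose to 5249 ± 78.6 with MDA-MB-231 EVs and 5170 ± 113 with MCF10A EVs, against 4503 ± 30.4 with PBS.

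Among 12 tested angiopoietin-like and semaphorin ligands, 1 was higher and 4 were lower with MDA-MB-231 EVs, 1 and 3 with MCF10A EVs, and 1 and 2 between the EVs. The share called was 41.7% with MDA-MB-231 EVs, 33.3% with MCF10A EVs and 25% between the EVs, against 34.8%, 31.7% and 16.9% of all tested genes in the same order. Their median log2 change was -0.23 with MDA-MB-231 EVs, -0.39 with MCF10A EVs and -0.19 between the EVs. Sema3a, a repulsive ligand that binds NRP1, averaged 4283 ± 127 with MDA-MB-231 EVs, 5128 ± 188 with MCF10A EVs and 5437 ± 161 with PBS. It fell with MDA-MB-231 EVs, by 0.34 on the log2 scale (limma adjusted p = 2.16e-06), and the change of -0.08 with MCF10A EVs was not called (adjusted p = 0.0898). Sema3e rose to 33.3 ± 3.22 with MDA-MB-231 EVs and 41.6 ± 1.10 with MCF10A EVs, against 17.0 ± 1.02 with PBS. Angptl6 fell to 18.2 ± 4.22 with MDA-MB-231 EVs and 25.2 ± 2.27 with MCF10A EVs, against 48.7 ± 1.21 with PBS. For MDA-MB-231 EVs against PBS the count was 3 lower and none higher without MDA-MB-231 EV replicate 1 and with DESeq2, and 2 lower and none higher with a filter of at least 5 CPM. Sema3e and Angptl6 rested on 15 to 53 reads per library.

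Of 7 tested genes that process these ligands or act with them on lipase, 4 fell with MDA-MB-231 EVs, 5 fell and 1 rose with MCF10A EVs, and 3 were lower and 1 higher between the EVs. The share called was 57.1% with MDA-MB-231 EVs, 85.7% with MCF10A EVs and 57.1% between the EVs, beside the same shares of all tested genes as above. Their median log2 change was -0.31 with MDA-MB-231 EVs, -0.23 with MCF10A EVs and -0.15 between the EVs. Lpl, the lipoprotein lipase that ANGPTL4 inhibits, fell most of the 7, to 6426 ± 424 with MDA-MB-231 EVs and 9791 ± 7.35 with MCF10A EVs, against 20237 ± 233 with PBS. Its changes were -1.66 with MDA-MB-231 EVs and -1.05 with MCF10A EVs (limma adjusted p = 9.35e-14 and 6.72e-11), so Lpl was lower with both EVs, while Angptl4 was higher with MCF10A EVs and slightly lower with MDA-MB-231 EVs. Sel1l, needed for lipase maturation, fell by 0.52 on the log2 scale with MDA-MB-231 EVs and by 0.20 with MCF10A EVs. Adamts1, a protease that can sequester VEGF-A, fell by 0.75 with MDA-MB-231 EVs and by 0.60 with MCF10A EVs. Furin, a convertase that cleaves VEGF-C and VEGF-D precursors, fell by 0.31 with MDA-MB-231 EVs and by 0.23 with MCF10A EVs. Ccbe1, the cofactor of VEGF-C cleavage, changed by 0.02 with MDA-MB-231 EVs, which was not called (limma adjusted p = 0.788), and fell by 0.26 with MCF10A EVs (adjusted p = 0.00106). The difference between the EVs was 0.28 (limma adjusted p = 0.0012).

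Other angiogenic growth factors numbered 18, of which 1 rose and 8 fell with MDA-MB-231 EVs, 2 rose and 3 fell with MCF10A EVs, and 1 was higher and 5 lower between the EVs. The share called was 9 of 18 with MDA-MB-231 EVs, 27.8% with MCF10A EVs and 33.3% between the EVs, against 34.8%, 31.7% and 16.9% of all tested genes in the same order. With MCF10A EVs the count was 3 lower and none higher without a variance trend. Their median log2 change was -0.27 with MDA-MB-231 EVs, -0.13 with MCF10A EVs and -0.18 between the EVs. Hgf, hepatocyte growth factor, averaged 5512 ± 25.8 with MDA-MB-231 EVs, 6365 ± 260 with MCF10A EVs and 7612 ± 256 with PBS, and fell in both. Cyr61, a matricellular angiogenic inducer, fell to 5927 ± 326 with MDA-MB-231 EVs and rose to 9274 ± 10.3 with MCF10A EVs, against 8404 ± 49.5 with PBS. Of 9 tested genes listed as angiogenesis inhibitors, 3 fell and 1, Vash2, rose with MDA-MB-231 EVs. With MCF10A EVs 3 fell, and between the EVs 3 were lower. These were 44.4%, 33.3% and 33.3% of the list, beside those same shares of all tested genes. With MDA-MB-231 EVs none was called higher by DESeq2 or without a variance trend. Whether Vash2 acts as an inhibitor here was not tested. The median of the list was -0.23 with MDA-MB-231 EVs, -0.05 with MCF10A EVs and -0.01 between the EVs. Thbs1, thrombospondin 1, fell to 68676 ± 1193 normalised reads with MDA-MB-231 EVs and 88136 ± 1657 with MCF10A EVs, against 138541 ± 561 with PBS.

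The hypoxia-inducible targets, a list that leaves out Vegfa, fell in 11 of 16 cases with MDA-MB-231 EVs and in 13 of 16 with MCF10A EVs, and only Adm rose, in both. The median log2 change was -0.45 with MDA-MB-231 EVs and -0.50 with MCF10A EVs. Bnip3, a mitophagy receptor, averaged 2952 ± 98.3 with MDA-MB-231 EVs, 2049.7 ± 37.9 with MCF10A EVs and 5065 ± 170 with PBS. Pdk1, a kinase that restrains pyruvate oxidation, had 2776 and 2707 with MDA-MB-231 EVs, 1983 and 2108 with MCF10A EVs, and 4171 and 4305 with PBS. Both were higher with MDA-MB-231 EVs than with MCF10A EVs, by 0.53 and 0.42 (limma adjusted p = 1.56e-07 and 2.12e-06), whereas Vegfa was lower. Between the EVs 5 of the 16 were higher and 2 lower, Adm and Ero1l, with a median of 0.09, but 3 were called without a variance trend. Of 8 genes of the factor system itself, 3 fell with MDA-MB-231 EVs and 4 with MCF10A EVs, and 1, Egln1, was higher between the EVs. The share called was 75.0%, 87.5% and 43.8% of the targets and 37.5%, 4 of 8 and 12.5% of the factor genes with MDA-MB-231 EVs, with MCF10A EVs and between the EVs, against 34.8%, 31.7% and 16.9% of all tested genes. The median of the factor genes was -0.20 with MDA-MB-231 EVs, -0.21 with MCF10A EVs and 0.09 between the EVs. Hif1a, the inducible subunit, fell to 11887 ± 225 with MDA-MB-231 EVs and 12582 ± 192 with MCF10A EVs, against 14193 ± 161 with PBS. Adm, which encodes adrenomedullin, was named after its values were seen.

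The ATF4 pathway is a stress response that can also raise VEGFA. All 8 tested genes fell with MDA-MB-231 EVs, with a median of -0.66, while 3 rose and 3 fell with MCF10A EVs, with a median of 0.05. Between the EVs 7 of 8 were lower, with a median of -0.54. The share called was thus all 8 with MDA-MB-231 EVs, 75.0% with MCF10A EVs and 87.5% between the EVs. Of all tested genes 34.8%, 31.7% and 16.9% were called in the same order. Ddit4 is in this list and also among the hypoxia-inducible targets, so these lists are not separate. Whether the hypoxia-inducible factors or the ATF4 pathway had a part in the change of Vegfa was not tested. Chac1, a glutathione-degrading target, averaged 575 ± 24.2 with MDA-MB-231 EVs, 1437 ± 72.7 with MCF10A EVs and 1091 ± 73.7 with PBS. Atf4 itself averaged 5991 ± 114 with MDA-MB-231 EVs, 7784 ± 199 with MCF10A EVs and 7860.2 ± 77.0 with PBS. The count with MCF10A EVs was 3 without MCF10A EV replicate 2 and 3 without PBS replicate 2, and that between the EVs 4 without a variance trend. Of 11 PPAR pathway genes, 4 fell with MDA-MB-231 EVs and 3 were lower between the EVs, with medians of -0.14 and -0.10. The share called was 36.4% with MDA-MB-231 EVs and 27.3% between the EVs, against 34.8% and 16.9% of all tested genes. With MCF10A EVs limma called 0 of the 11, where 31.7% of all tested genes were called. There 0 had an unadjusted p under 0.05, and edgeR and DESeq2 called 0. Any part of this pathway in the change of Angptl4 was not tested. With replicate 1 of MDA-MB-231 EVs or of MCF10A EVs left out, the count between the EVs was 1.

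Between the EVs the list counts leaned on the variance trend in the model. Without it limma called 1 receptor gene, 1 processing gene, 1 other growth factor and 1 inhibitor, and 0 genes of the angiopoietin-like and semaphorin, hypoxia factor and PPAR lists. Hypoxia factor genes called between the EVs numbered 3 without MDA-MB-231 EV replicate 1 and 3 with edgeR.

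**Figure D4:**
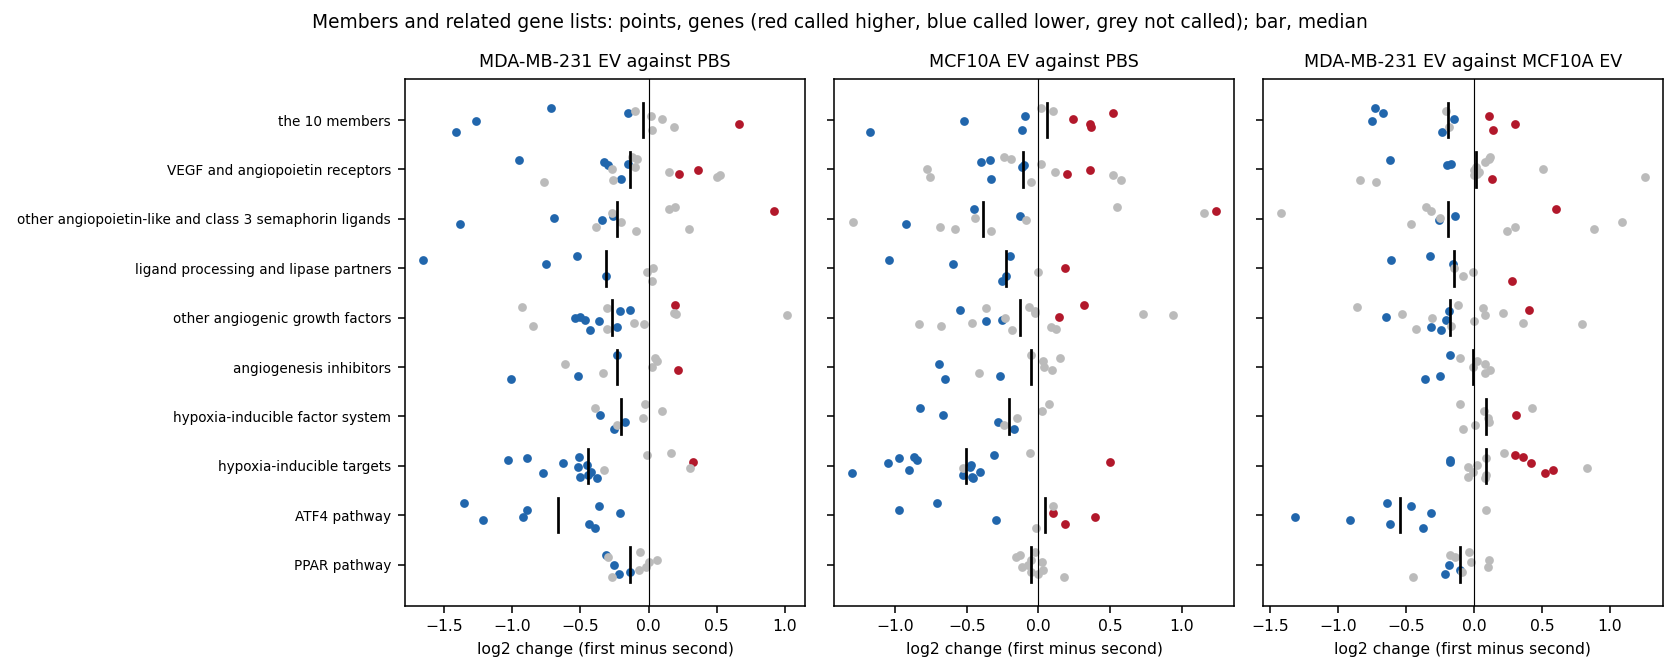
Log2 changes (horizontal axis) of the 10 genes and of each related list, 1 point per gene and a bar at the median, for the 3 comparisons. The hypoxia targets lie mostly left of 0 with either EV, and the ATF4 genes lie left of 0 with MDA-MB-231 EVs and on both sides with MCF10A EVs.

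The genes whose levels followed each member most closely over the 6 libraries were ranked by Pearson r of log2 levels. The ranking covered 10308 genes averaging at least 100 normalised reads. Predicted genes and clone-type symbols, such as those ending in Rik, were passed over, so the closest genes below are the closest named ones. The 6 points fall in 3 groups, so r mainly reads the group means and carries no test. For Vegfa the 4 closest were Gtpbp2, a GTP-binding protein gene (r = 0.999), Ero1l, an oxidase of the endoplasmic reticulum (0.999), Arntl, a core clock factor (0.999), and Trp53inp2, an autophagy gene (0.998). Vegfa stood at 37.6% of its PBS mean with MDA-MB-231 EVs and at 44.2% with MCF10A EVs. With MDA-MB-231 and MCF10A EVs in that order, Ero1l stood at 49.0% and 55.5%, Arntl at 58.0% and 64.5%, Trp53inp2 at 60.7% and 67.7%, and Gtpbp2 at 68.5% and 72.5%. The order of the groups was the same in these genes, which largely follows from choosing them by r. The depth of the fall, which r does not set, was greatest for Vegfa.

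The closest to Figf were Vat1 and Pcnt (r = 0.999 and 0.998), and to Nrp1 Lpcat3 and Nsf (both 0.998). For Angptl4 they were Mtmr10 and Clptm1 (0.999 and 0.995), and for Angpt1 Tut1 and Ptcd1 (0.999 and 0.997). Vegfb was followed by Ifngr1 and Aldh5a1 (0.992 and 0.990), Vegfc by Uxs1 and Heatr5b (0.987 and 0.980), and Angptl2 by Igip and Hoxa3 (0.991 and 0.986). Pgf and Flt1 had means under 100 and were not ranked.

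**Figure D5:**
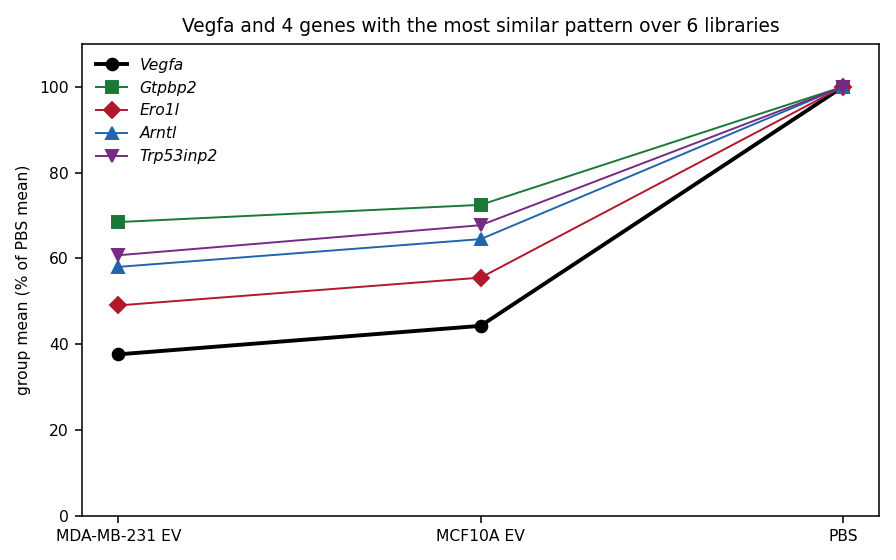
Group means as a percentage of the PBS mean (vertical axis), by group. Lines show Vegfa and the 4 named genes with the most similar levels over 6 libraries. All 5 lines, alike in order by this choice, are lowest with MDA-MB-231 EVs, and that of Vegfa is the lowest of them at 37.6%.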

How the data were processed

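The data are 6 RNA-seq libraries of NIH3T3 cells, 2 per group. Per the submitters' processing notes, the authors' tools were TopHat2 and edgeR and the build was human hg19, although the deposited rows are mouse genes named by mouse chromosome. The mouse build, read counter, annotation, counted strand and versions were not given in the sources used here, and genes are therefore placed by chromosome only. The authors deposited normalised signal, which the values show to be edgeR quantile-adjusted pseudo-counts. Inverting that adjustment gave whole reads for 122850 of 122850 values (100.0%, within a relative 1e-06). A floor of 3 reads was 0.102 to 0.134 CPM per library, and such floors cover counting error only. All 6 columns of values were used, and 0 were left out.

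The plan named tests for counts or normalised values, and the test planned for normalised values was taken. limma 3.58.1 in R 4.3.3 (lmFit, eBayes with trend) was applied to log2(value + 1) of the 15025 genes reaching 1 normalised read in 2 or more libraries, with a mean per group, 3 residual and 11.5 prior degrees of freedom, and Benjamini-Hochberg adjustment over all tested genes. On the recovered reads edgeR 4.0.16 (quasi-likelihood, 12352 genes) called 5554 genes with MDA-MB-231 EVs and 5160 with MCF10A EVs, each against PBS, and 2987 between the EVs, and DESeq2 1.42.0 was another alternative. Other alternatives were scalings, low-value filters, pseudocounts, no variance trend, each library left out and a replicate block. The fit was tested on simulated data.

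Members, lists and naming rule were chosen with earlier results of these data known. The rule named all 10 members, up to 4 called genes of smallest p per list and comparison, 8 pathway genes always, and the genes most like each member, of which 1 is not reported here. Exon lengths came from GENCODE M21, used for length and overlap only, and promoter sequences from RefSeq. Lmf1, of the lipase list, was not among the table's symbols.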

Additional observations from a re-analysis of the deposited data

Results flagged for a closer look

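For 4 of the 10 genes the estimated change against PBS had opposite signs with the EVs, and the direct limma comparison of MDA-MB-231 with MCF10A EVs called the difference. Nrp1 had log2 changes of -0.72 with MDA-MB-231 EVs and 0.015 with MCF10A EVs, a difference of -0.7313 (limma adjusted p = 2.21e-09). Angptl4 changed by -0.15 with MDA-MB-231 EVs and 0.52 with MCF10A EVs, a difference of -0.6717 (limma adjusted p = 3.48e-07). Vegfb changed by 0.02 and -0.12 with MDA-MB-231 and MCF10A EVs, a difference of 0.1388 (limma adjusted p = 0.021). Angptl2 changed by 0.02 and -0.09, a difference of 0.1095 (limma adjusted p = 0.0198). The differences of Nrp1 and Angptl4 held in all 18 settings, whereas those of Vegfb and Angptl2 were lost in 5 and 3. In Nrp1, Vegfb and Angptl2 the change of 1 EV against PBS was itself not called.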

How the results depend on the processing

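Over 18 alternative settings, 482 of 537 member values kept direction and call, 44 lost the call, 6 gained it and 5 reversed sign, none of these 5 called. The reversals came with a library left out. For MDA-MB-231 EVs against PBS with a library left out, Vegfb ranged from -0.0082 (without MDA-MB-231 EV replicate 1) to 0.0508 and Angptl2 from -0.0058 (likewise) to 0.0422, and scaling by library totals gave 0.0868 and 0.0842. In the same comparison Flt1 ranged from -0.3371 to 0.1309 (without PBS replicate 1). For MCF10A EVs against PBS, Flt1 ranged from -0.1314 (without PBS replicate 2) to 0.3367 and Nrp1 from -0.0224 (without MCF10A EV replicate 1) to 0.0524. For MDA-MB-231 EVs against PBS 4 to 7 members were called in every setting, 4 to 5 with a library left out. For MCF10A EVs against PBS the 8 calls became 5 with DESeq2, 5 without a variance trend and 4 to 8 with a library left out (4 without either PBS replicate, 5 without MCF10A EV replicate 2). Between the EVs the 8 calls became 4 without a trend and 5 to 8 with a library left out (5 without replicate 1 of either EV). The causes were not tested.

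Same-numbered replicates did not deviate together (correlations -0.004, -0.006 and 0.019 over 10309 genes). Whether they were prepared together is not in the labels, and these correlations cannot tell. A fit with replicate block called 5, 8 and 8 members. With scaling by library totals 67.8% of the calls over all genes were higher for MDA-MB-231 EVs against PBS, not 51.4%, and between the EVs 61.7% (50.7% with quantile scaling), not 40.4%, while the median of all genes moved by less than 0.1. Flt1 was not in the fit with at least 5 CPM. Depth limits Flt1 and Pgf, with 54 to 154 reads per library.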
